A study of Mus musculus with 12 samples.

Results

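Scratched cortical neurons treated with TGF-β1 were compared with uninjured neurons cultured in the same way, to describe which functions stood away from the uninjured state once the cytokine had been added. The comparison used 8 of the 12 libraries of the series, 4 of scratched neurons with TGF-β1 and 4 uninjured. It covered 15016 of the 55901 genes in the file, those with a mean of at least 0.5 FPKM over the 12 libraries. FPKM counts sequenced fragments per length of transcript and per depth of the library, a level that can be compared between genes. At that threshold the lowest gene tested had a mean of 0.500047 FPKM and the highest gene left out 0.499981 FPKM.

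TGF-β1 is a secreted cytokine that is stored in the matrix in latent form and binds a pair of transmembrane kinase receptors, which phosphorylate the transcription factors Smad2 and Smad3. These enter the nucleus with Smad4 and raise matrix, adhesion and feedback genes in many cell types, and in brain injury the cytokine is made by glia and acts on glia, vessels and neurons. Mechanical injury of neurons, for its part, lets calcium in, switches on immediate early genes within minutes, and engages programmes of axon regrowth or of cell death.

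All cells came from the cerebral cortex of neonatal C57BL/6J mice, taken within 24 h of birth, with no genetic change in any group, and all cultures received arabinosylcytosine, which stops dividing cells, to limit glia. Control neurons were left uninjured (0 ng/mL TGF-β1, 4 libraries), Trauma neurons were scratched (0 ng/mL, 4 libraries), and Trauma+TGF-β1 neurons were scratched and received 10 ng/mL TGF-β1 for 24 h (4 libraries). No group of uninjured neurons with TGF-β1 was analysed here, so an effect of the cytokine alone and an effect on injured neurons cannot be told apart. The labels do not say whether libraries of a group came from separate cultures, so p-values measure the spread between these libraries, which may be technical. The study's methods speak of fewer sequenced samples than the labels list, so whether each library was an independent sample is not known.

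The libraries held 15052486 to 17381671 reads on genes. Control replicate 1 stood apart: it had 22124 genes with at least 1 read against 23362 to 23629 in the other Controls, and 2.97% of its reads came from mitochondrial DNA genes against 2.12% to 2.36%. The mitochondrial share was 3.0% ± 0.253 in Trauma+TGF-β1 and 2.43% ± 0.370 in Control (SD, n = 4; two-sided exact permutation p = 0.0857, 0.114 adjusted over 4 library measures, 70 assignments). All 16 neuron markers passed the filter, with summed levels of 1885 to 1938 FPKM in Control and 1669 to 1702 FPKM in Trauma+TGF-β1, while astrocyte markers reached 514 to 573 and 632 to 674 FPKM. A large part of the neuron sum was Tubb3, described below. The median log2 fold change of the 16 neuron markers against Control was 0.04, with 9 positive and 7 negative, so they did not fall as a group. Markers of neurons and of astrocytes were thus both present. In such bulk RNA, fewer cells of a type and less RNA per cell cannot be told apart.

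In Trauma+TGF-β1 against Control, 2449 genes (16.3% of those tested) passed an adjusted p of 0.05 in limma (moderated test on log2(FPKM + 0.1), Benjamini-Hochberg). Of these, 1029 were higher (6.85% of genes tested) and 1420 lower (9.46%), so 42.0% of calls were higher; quantile normalization turned this balance to 55.3% higher (1134 higher, 918 lower). Most differences were small, with a median log2 fold change of 0.37 among the genes called higher and -0.29 among those called lower, and 105 higher and 29 lower genes changed by 1 or more. The median over all genes was 0.00. Below, values without a unit are log2 fold changes against Control, with the minus sign kept for genes that were lower. Fewer genes were called in Trauma against Control (526 higher, 3.5%, and 348 lower, 2.32%). In Trauma+TGF-β1 against Trauma, 696 genes were higher (4.64%) and 1146 lower (7.63%). These 3 comparisons share their libraries, so below their values are only set side by side. The 4 and 4 libraries of Control and Trauma+TGF-β1 did not overlap in 1298 genes on the higher side (8.64%) and 1408 on the lower side (9.38%).

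Leaving out Control replicate 1 raised the calls to 3422, and leaving out Control replicate 2 or 3, or Trauma+TGF-β1 replicate 2 or 4, lowered them to 1481, 1442, 1438 and 1579. The genes called lower were richer in G and C than the genes called higher (median GC content 55.2% and 46.9%, against 49.6% over all genes) and shorter (median length 3404 and 5600 bases, against 3865). Across the 14699 genes with a known GC content, Spearman's rho between fold change and GC content was -0.359, a description across genes that share the same libraries. With a loess correction for GC content 1860 genes were called (874 higher, 986 lower), of which 1509 were among the 2449, and 47.0% of calls were higher. The same kind of correction for gene length called 2192 genes (890 higher, 1302 lower), of which 1929 were among the 2449. Single genes were followed only where they were named by the rules given under processing. Of these, Bcan, B2m, Camk2d, Ccne1, Cnih2, Ctsb, Ctsc, Dlgap3, Etv4, Grin2d, Hcn2, Ier5, Kif5b, Map1lc3a, Mmp15, mt-Nd5, Rfng, Scn3b, Slc17a6, Slc32a1, Smad7 and Stat2 lost their call under the GC correction. Bcan, Ccne1, Ctsc, Ier5, Rfng, Rplp1, Sqstm1 and Tubb3 lost theirs under quantile normalization. Other list members given below can also have lost their call. The stress list, for example, went from 7 higher and 7 lower to 4 and 5 under the GC correction.

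Genes were grouped into 34 lists of functions and 6 lists of cell type markers. Among the function lists, S phase and mitosis (15 of 30), matrix (49.2%), ERK feedback (42.9%), TGF-β response (42.1%) and neuropeptide genes (40.9%) had the largest shares called higher, and sterol synthesis (82.4%) and respiratory complexes I (51.4%) and II to IV (13 of 26) the largest shares called lower. Further lists also lay above the shares over all genes, such as axon regeneration (35.5% higher), immediate early (33.3% higher) and calcium (34.1% lower). Some shares lay near those over all genes, such as the 8.0%, 8.51% and 10.0% called higher in the postsynaptic, potassium channel and interferon lists. Of the genes tested, 466 had a Control mean below 0.5 FPKM and so passed the filter through the scratched groups; 48 of these were called higher.

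**Figure D1:**
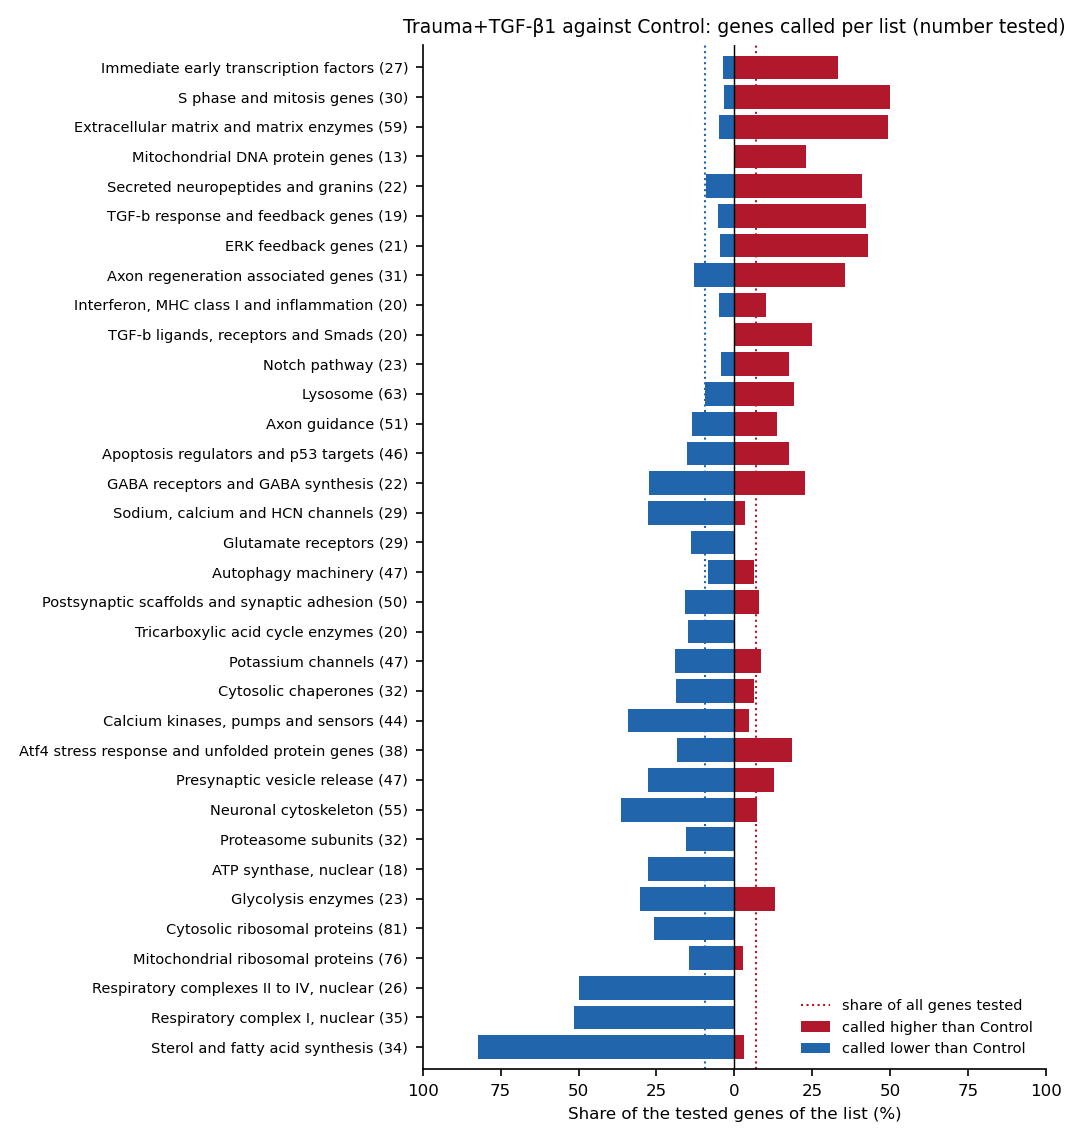
Share of the tested genes of each of 34 function lists called higher (red, to the right) or lower (blue, to the left) in Trauma+TGF-β1 than in Control, with the number of genes tested in brackets and the lists ordered by their median log2 fold change. Dotted lines mark the shares over all genes tested, 6.85% higher and 9.46% lower. Sterol synthesis reaches furthest to the left and the S phase and matrix lists furthest to the right; the balance of calls in the chaperone, autophagy, presynaptic, postsynaptic, glutamate receptor, GABA, glycolysis, tricarboxylic acid cycle and cytoskeleton lists turns from lower to higher under quantile normalization, and that of the proteasome evens out.

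The TGF-β pathway itself was described first. Of 20 tested ligands, receptors and Smads, 5 were called higher and 0 lower in Trauma+TGF-β1 than in Control, with a median log2 fold change of 0.12. Leaving out Control replicate 2 or 3, or Trauma+TGF-β1 replicate 2 or 4, left 3 called higher. The largest difference was in Ltbp3, which binds latent TGF-β and anchors it in the matrix. Its levels were 0.981, 1.48, 1.39 and 1.61 FPKM in Control and 2.39, 2.83, 2.54 and 2.50 FPKM in Trauma+TGF-β1 (log2 fold change 0.88 ± 0.13 SE, adjusted p = 0.0016), and the groups did not overlap. Bmpr1b, a type I receptor for bone morphogenetic proteins, was higher by 0.49 ± 0.11 (adjusted p = 0.013) and Tgfb3, a ligand, by 0.45. Smad3, the receptor-activated Smad, did not pass the test: it read 2.46 to 3.31 FPKM in Control and 3.39 to 3.55 FPKM in Trauma+TGF-β1 (0.26 ± 0.09, adjusted p = 0.085). Tgfb1, Tgfbr3, Ltbp1 and Eng were below the filter.

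Among 19 tested response and feedback genes of TGF-β, 8 were higher and 1 was lower (median 0.22). Ccn2, or connective tissue growth factor, a matricellular protein long used as a TGF-β target, had a small spread for a large change. It read 2.03, 1.65, 1.96 and 2.14 FPKM in Control, 3.62, 3.39, 3.54 and 3.54 FPKM in Trauma, and 10.8, 11.1, 10.8 and 10.6 FPKM in Trauma+TGF-β1. The 3 groups did not overlap, and the log2 fold change against Control was 2.42 ± 0.07 (adjusted p = 2.4e-09), beside 0.83 for Trauma against Control. Acta2, smooth muscle actin, read 0.999, 1.54, 1.29 and 1.64 FPKM in Control and 7.91, 6.68, 7.13 and 6.02 FPKM in Trauma+TGF-β1 (2.28 ± 0.14, adjusted p = 2.6e-06; Trauma 1.64). Ccn1, a relative of Ccn2, was higher by 1.96 ± 0.18 and Nedd9, a docking protein of adhesion signalling, by 1.16. The feedback genes Skil and Pmepa1, which restrain Smads or their receptors, were higher by 0.40 and 0.52. Smad7, the inhibitory Smad, was the 1 member called lower (-0.53 ± 0.15, adjusted p = 0.037), with groups that overlapped: 2.43 to 3.58 FPKM in Control and 1.66 to 2.50 FPKM in Trauma+TGF-β1. That call was lost without Control replicate 2, 3 or 4 or Trauma+TGF-β1 replicate 2 or 4. Smad6, Tgfbi and Snai1 were among 9 members below the filter.

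Outside any list, Mfsd2a, a lysophosphatidylcholine transporter that carries docosahexaenoic acid, had the smallest adjusted p of all genes tested. It read 14.6, 14.7, 13.6 and 14.1 FPKM in Control and 50.3, 54.0, 52.3 and 55.5 FPKM in Trauma+TGF-β1 (1.89 ± 0.05, adjusted p = 4.6e-10). In Trauma alone it read 19.1 to 21.5 FPKM, between the other groups without overlap. Tmem100, a membrane protein of endothelium and sensory neurons, went from 0.803, 1.02, 1.18 and 1.20 FPKM in Control to 3.79, 4.82, 3.96 and 3.74 FPKM (1.87 ± 0.17, adjusted p = 5.6e-05), with 1.25 to 2.10 FPKM in Trauma.

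Matrix genes made up the broadest group on the higher side. Of 59 tested genes for matrix proteins, integrins and matrix enzymes, 29 were higher (49.2%), 3 were lower and 27 were not called, with a median of 0.43, and 32 had libraries that did not overlap on the higher side. In Trauma against Control 18 of the 59 were higher and 0 lower (median 0.32). Every library of Trauma+TGF-β1 had a median matrix level 0.373 to 0.489 above the Control mean on the log2 scale, above the 0.287 to 0.336 of the Trauma libraries. This call count kept to 25 to 30 when any 1 library was left out, and it was 29 under quantile normalization and 33 under correction for GC content. In the 51 members with a Control mean of at least 0.5 FPKM, 25 were higher and 3 lower (median 0.41).

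Collagens were described first. Col12a1, which decorates collagen fibrils and had the largest increase in the list, read 0.411, 0.443, 0.298 and 0.326 FPKM in Control, 0.644 to 0.769 FPKM in Trauma and 1.95, 1.99, 1.78 and 1.98 FPKM in Trauma+TGF-β1 (2.12 ± 0.16, adjusted p = 1.1e-05). The Control mean of Col12a1 was 0.369 FPKM, below the filter of 0.5 FPKM, so this gene passed through the scratched groups. Col5a2 and Col5a1, which start fibril assembly, were higher by 1.36 and 0.81, and Col6a1 by 0.63. Col4a1, a basement membrane chain, had 0.07 and was not called. Fn1, fibronectin, the adhesive protein that integrins bind, read 2.86, 2.57, 2.29 and 2.35 FPKM in Control, 2.71, 2.83, 3.10 and 2.97 FPKM in Trauma and 5.15, 5.30, 4.98 and 4.38 FPKM in Trauma+TGF-β1. Its Trauma and Control libraries overlapped and those with TGF-β1 lay above both (0.95 ± 0.09 against Control, adjusted p = 5.3e-05).

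Enzymes and integrins of the same list were also called higher. The crosslinking enzymes Lox and Loxl1 and the collagen lysyl hydroxylase Plod2 were higher by 1.35, 1.19 and 1.44, and the small proteoglycan Bgn by 1.52. Of the metalloproteinase inhibitors, Timp3 was higher by 1.29, and Timp1 by 1.56 ± 0.36 with a wide spread (0.290 to 0.944 FPKM in Control and 0.984 to 2.30 FPKM in Trauma+TGF-β1). The integrin chains Itga5, Itgav, Itgb5 and Itgb1 were higher by 0.84, 0.52, 0.50 and 0.37. The 3 members called lower were Mmp15, a membrane-bound protease (-0.33), the brain proteoglycan Bcan (-0.24) and Sparcl1, which astrocytes secrete (-0.16). Bcan had overlapping groups, with 31.6 FPKM in Control replicate 1 and 30.8 to 32.0 FPKM in Trauma+TGF-β1, and 1 of the 3 was called without Control replicate 2 or 3 or Trauma+TGF-β1 replicate 4.

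Genes of early injury signalling were also high. Of 27 immediate early genes, 9 were higher than Control and 1 lower (median 0.60), while in Trauma alone 13 were higher and 0 lower (median 0.97). In the 26 members with a Control mean of at least 0.5 FPKM, 8 were higher and 1 lower with TGF-β1 (median 0.53). Fosb, described below, was not among these 26. Fos, a subunit of the factor AP-1, read 1.54, 1.04, 1.29 and 1.61 FPKM in Control and 5.24, 5.78, 18.1 and 13.7 FPKM in Trauma+TGF-β1 (2.70 ± 0.52, adjusted p = 0.0056). Replicates 3 and 4 were high and 1 and 2 low in Trauma as well (5.69, 5.97, 23.4 and 22.5 FPKM). Jun, its partner, had little spread, with 8.39, 9.19, 9.12 and 9.02 FPKM in Control and 15.6, 14.3, 16.6 and 14.9 FPKM with TGF-β1 (0.78 ± 0.06, adjusted p = 7.9e-06). Fosb, Nr4a3, Nr4a2, Bdnf and Nptx2 were higher by 1.95, 1.33, 1.16, 1.04 and 1.03, and the call of Fosb was lost without any 1 of Control replicates 2 to 4 or Trauma+TGF-β1 replicate 3 or 4. Egr1, Arc, Npas4 and Nr4a1 had 1.01, 1.0, 1.04 and 1.25 but did not pass. Ier5 was lower by -0.35 ± 0.11 (adjusted p = 0.045), a call lost without any 1 of Control replicates 2 to 4 or Trauma+TGF-β1 replicates 2 to 4.

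Among 21 genes that ERK signalling induces and that feed back on it, 9 were higher and 1 lower (median 0.19). Dusp1, a phosphatase that inactivates MAP kinases, read 1.93, 1.88, 2.30 and 2.10 FPKM in Control and 3.15, 3.44, 5.10 and 5.01 FPKM in Trauma+TGF-β1 (0.96 ± 0.22, adjusted p = 0.013). Spry4 and Spred3, inhibitors of Ras signalling, were both higher by 0.95. Etv4, an ETS factor, was lower by -0.32 ± 0.09 (adjusted p = 0.035), with 2.32 to 2.92 FPKM against 1.82 to 2.22 FPKM, a call lost without Control replicate 2 or 4 or Trauma+TGF-β1 replicate 2 or 4.

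**Figure D2:**
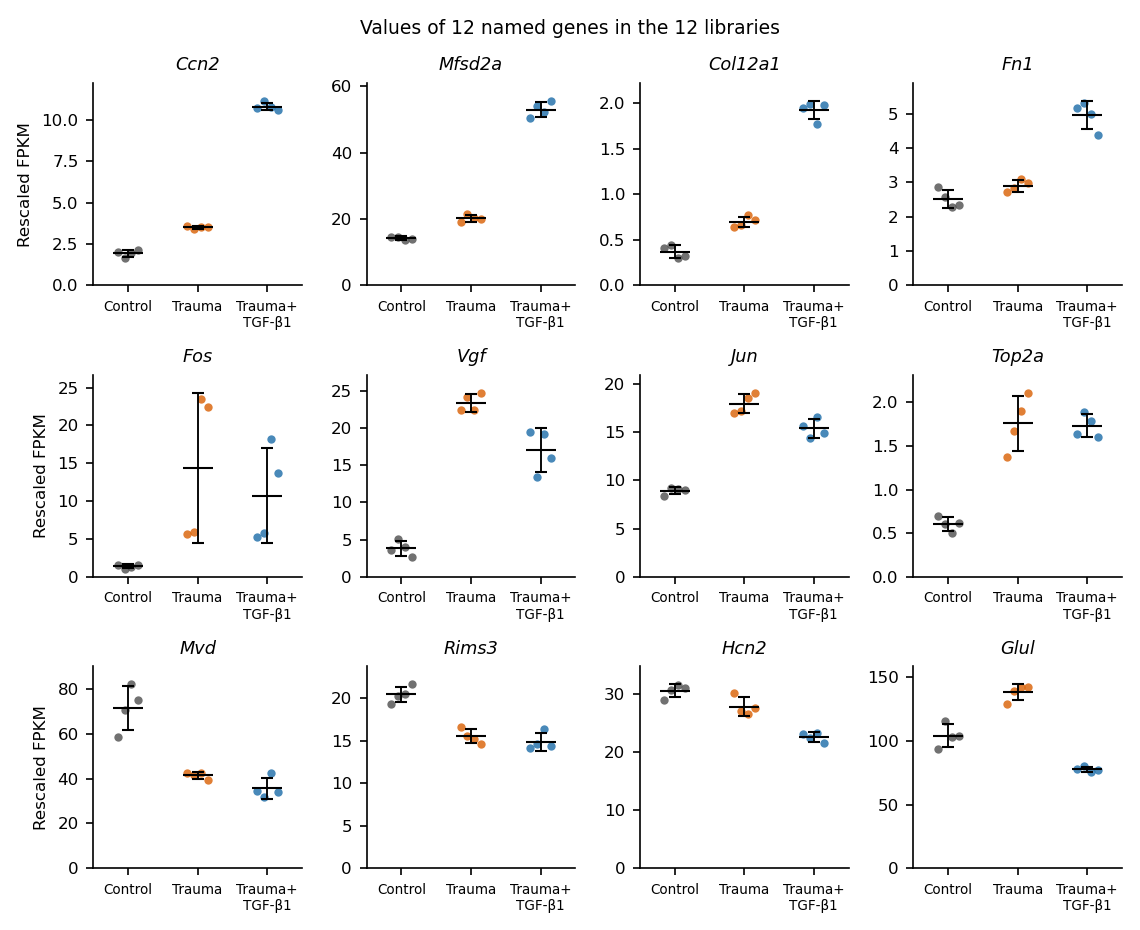
Rescaled FPKM of 12 genes in the 4 libraries of each group (points, Control grey, Trauma orange, Trauma+TGF-β1 blue), with the group mean (bar) and SD (whiskers), on axes that start at 0. Ccn2, Mfsd2a, Col12a1 and Fn1 are highest with TGF-β1, Fos, Vgf, Jun and Top2a are above Control in both scratched groups, and Glul is above Control in Trauma and below it with TGF-β1.

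Secreted neuropeptides and the granins stored with them split by direction. Of 22 tested, 9 were higher and 2 lower (median 0.32), beside 9 and 2 in Trauma (median 0.34). In the 20 members with a Control mean of at least 0.5 FPKM, 8 were higher and 2 lower (median 0.16). Cartpt, described below, was not among these 20. Vgf, a granin-like precursor induced by neurotrophins, read 3.67, 5.12, 3.95 and 2.62 FPKM in Control, 22.4, 24.1, 22.3 and 24.7 FPKM in Trauma and 19.5, 13.4, 19.2 and 16.0 FPKM in Trauma+TGF-β1 (2.14 ± 0.17, adjusted p = 1.6e-05). Cartpt, Scg2, Penk, Pcsk1, Adcyap1, Npy and Sst were higher by 1.62, 1.42, 1.01, 0.91, 0.77, 0.49 and 0.39. Cartpt was low everywhere (0.137 to 0.707 FPKM in Control, 1.00 to 2.05 FPKM with TGF-β1), and the constant of 0.1 makes its fold change understate the ratio. The members called lower handle precursors: Pcsk1n, an inhibitor of the convertase Pcsk1, by -0.53 (153 to 212 against 115 to 143 FPKM), and Pcsk2, another convertase, by -0.34 (14.6 to 16.0 against 10.8 to 12.7 FPKM).

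Genes known from regrowing axons gave 11 higher and 4 lower of 31 (median 0.15). In the 29 members with a Control mean of at least 0.5 FPKM, 9 were higher and 4 lower (median 0.11). Hspb1 and Cd44, described below, were not among these 29. Hspb1, a small heat shock protein that guards the cytoskeleton, read 0.250, 0.226, 1.1 and 0.312 FPKM in Control and 3.12, 2.8, 2.76 and 2.0 FPKM in Trauma+TGF-β1 (2.49 ± 0.38, adjusted p = 0.0016). Control replicate 3 was the highest Control and still lay below every treated library. Cd44, a hyaluronan receptor, was higher by 1.06, Cebpd by 0.80, Crem by 0.74, Tnfrsf12a by 0.72, and Stat3 by 0.44. The 4 called lower were Basp1 of the growth cone (-0.37), the tubulins Tubb3 (-0.37) and Tubb2b (-0.25), and the protease Mmp24 (-0.24). Gap43, Sox11 and Atf3 had -0.16, -0.06 and 0.04 and were not called.

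Promoters were read from RefSeq (GRCm38.p6), 250 bases before to 50 after the start, for 9984 of the tested genes. Each was searched on both strands for a cyclic AMP response element (CRE, TGACGTCA), a TEAD element (GGAATG, met in Ccn1 and Ccn2 regulation), an AP-1 element (TGAGTCA or its reverse complement TGACTCA), a tandem SMAD element (AGCCAGAC), an NRF1 core (GCGCATGC) and an ETS element (CCGGAAG). The CRE was in 3.69% of all windows, in 26.3% of the 19 neuropeptide windows and in 17.6% of the 17 ERK feedback windows. The TEAD element was in 14.3% of all windows and in 4 of 10 windows (40.0%) of TGF-β response genes. The SMAD element was in 0 of these 10. Both were in 0 of the 17 windows of TGF-β ligands, receptors and Smads. A high TEAD share was not particular to TGF-β response genes, with 3 of 7 oligodendrocyte windows (42.9%) and 5 of 17 glutamate receptor windows (29.4%). Over the 743 genes called higher with a window, the shares were 4.31% for CRE, 15.2% for TEAD, 5.92% for AP-1 (4.15% of all) and 1.48% for SMAD (1.53% of all). A match is a description of the letters and not a bound site. The windows of 4 genes called higher are printed in full, because they carry these elements, which are in capitals (TEAD in Acta2 and, as its reverse complement, in Ccn1, and CRE in Cartpt and Dusp1). Their coordinates are chr19:34255324-34255623 for Acta2, chr3:145649936-145650235 for Ccn1, chr13:99900634-99900933 for Cartpt and chr17:26508423-26508722 for Dusp1, all on the minus strand. The elements begin at positions -146, -103, -112 and -143 from the start.
Acta2: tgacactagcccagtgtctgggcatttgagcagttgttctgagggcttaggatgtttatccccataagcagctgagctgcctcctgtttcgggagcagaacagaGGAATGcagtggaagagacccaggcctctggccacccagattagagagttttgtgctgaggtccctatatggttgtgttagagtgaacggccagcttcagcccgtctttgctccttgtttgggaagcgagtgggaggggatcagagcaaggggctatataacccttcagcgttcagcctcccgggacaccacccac
Ccn1: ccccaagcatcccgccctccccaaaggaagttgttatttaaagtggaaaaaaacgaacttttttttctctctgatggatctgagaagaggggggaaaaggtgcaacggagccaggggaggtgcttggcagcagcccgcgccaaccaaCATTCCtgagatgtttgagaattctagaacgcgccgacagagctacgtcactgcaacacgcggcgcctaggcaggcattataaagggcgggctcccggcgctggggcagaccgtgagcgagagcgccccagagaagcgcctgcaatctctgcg
Cartpt: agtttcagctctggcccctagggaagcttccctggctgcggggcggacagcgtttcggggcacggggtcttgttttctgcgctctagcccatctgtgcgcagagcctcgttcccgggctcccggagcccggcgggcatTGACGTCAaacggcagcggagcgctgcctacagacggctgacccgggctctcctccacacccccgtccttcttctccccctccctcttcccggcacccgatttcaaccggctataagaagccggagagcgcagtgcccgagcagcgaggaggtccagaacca
Dusp1: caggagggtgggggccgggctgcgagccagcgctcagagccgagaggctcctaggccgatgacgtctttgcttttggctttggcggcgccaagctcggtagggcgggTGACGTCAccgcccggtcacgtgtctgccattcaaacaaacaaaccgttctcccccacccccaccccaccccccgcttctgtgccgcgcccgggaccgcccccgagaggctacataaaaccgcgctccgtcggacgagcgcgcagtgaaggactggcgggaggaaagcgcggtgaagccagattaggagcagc

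On the lower side, the synthesis of sterols and fatty acids was the most complete group. Of 34 tested genes, 28 were lower (82.4%), 1 was higher and 5 were not called, with a median of -0.46; in Trauma alone 29 were lower (median -0.51). In Trauma+TGF-β1 against Trauma 2 were higher and 1 lower (median 0.06). The 4 treated libraries had list medians of -0.501 to -0.370 from the Control mean and the 4 Trauma libraries -0.515 to -0.470. The count of lower genes kept to 26 to 29 with any 1 library left out and was 27 under quantile normalization and 28 under GC correction.

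The genes span the pathway from acetyl-CoA to cholesterol. Mvd, which decarboxylates mevalonate diphosphate, read 58.6, 70.8, 82.1 and 74.9 FPKM in Control, 42.5, 41.8, 42.5 and 39.3 FPKM in Trauma and 34.7, 31.7, 42.4 and 34.1 FPKM in Trauma+TGF-β1 (-1.0 ± 0.10, adjusted p = 0.00012). Hmgcs1, which makes HMG-CoA, was lower by -0.50, Mvk by -0.80, Sqle and Lss, which make and close squalene epoxide, by -0.48 and -0.70, and Dhcr7 by -0.45. Fdps was lower by -1.24, but its counts may be divided with pseudogene copies and its level of 2.42 to 3.52 FPKM is uncertain. The sensor Insig1 and the intracellular carrier Stard4 were lower by -0.77 and -0.90. Of the regulators, Srebf2, which switches on sterol genes, was lower by -0.27 and Srebf1, which favours fatty acid genes, was the 1 member called higher (0.31 ± 0.06, 15.3 to 19.4 against 21.6 to 22.3 FPKM). Scd1, Scd2 and Elovl6, which desaturate or lengthen fatty acids, had -0.14, -0.12 and -0.06 and were not called, with -0.39, -0.21 and -0.31 in Trauma, where they were called lower.

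**Figure D3:**
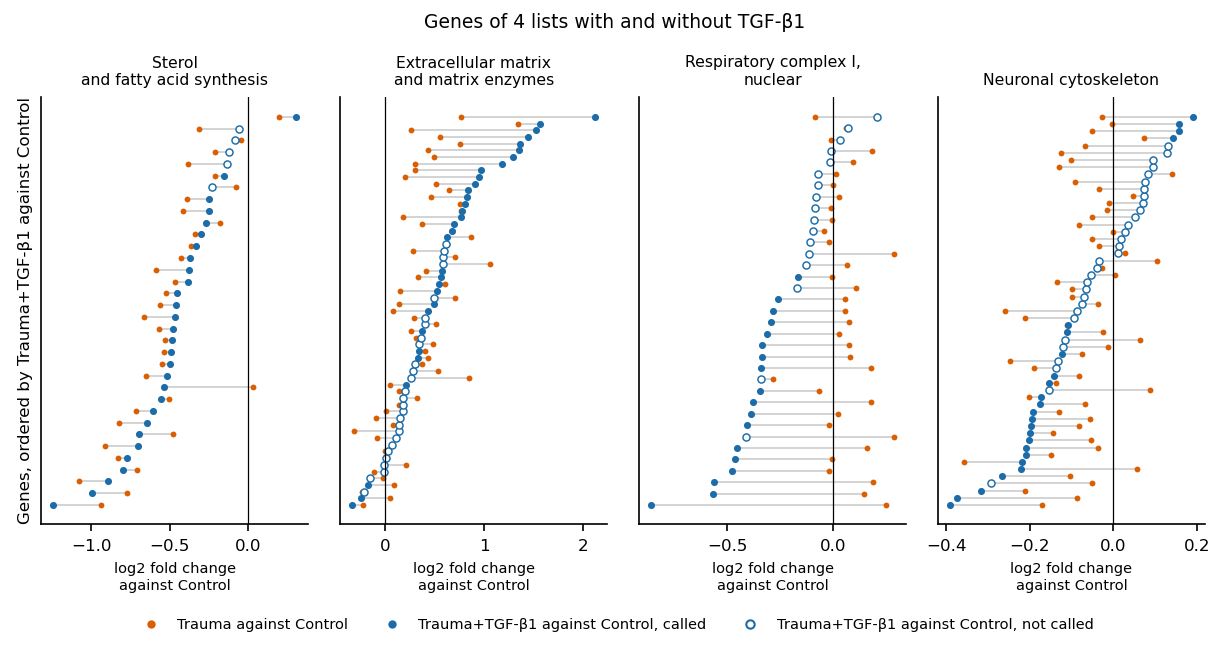
Log2 fold change against Control of every tested gene of 4 lists, 1 gene per row, ordered by its value with TGF-β1 (blue, filled where called) and joined to its value in Trauma (orange). Sterol genes sit to the left of 0 in both groups, matrix genes to the right with longer arms in TGF-β1, complex I genes to the left with TGF-β1 while their Trauma values lie around 0, and cytoskeletal genes spread about 0 (4 higher and 20 lower, but 13 and 4 under quantile normalization).

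Nuclear genes of the respiratory chain fell below Control with TGF-β1, and none of complexes I to V was called by limma in Trauma alone. At an unadjusted p under 0.05 in Trauma, 4 genes of complex I were higher and 1 lower, 4 of complexes II to IV were higher and 0 lower, and 1 of ATP synthase was higher and 0 lower. Of 35 complex I genes, 18 were lower and 0 higher (51.4%, median -0.28), beside 0 and 0 in Trauma (median 0.06) and 21 lower in Trauma+TGF-β1 against Trauma. Leaving out Control replicate 2 or 3 left 11 lower, quantile normalization left 12 and correction for gene length left 14. Ndufb6, an accessory subunit, read 48.9, 73.9, 63.8 and 66.4 FPKM in Control and 43.6, 42.7, 43.5 and 39.4 FPKM in Trauma+TGF-β1 (-0.57 ± 0.12, adjusted p = 0.0085). Control replicate 1 was the lowest Control here, and also in Ndufa2 (46.0 FPKM against 81.1 to 92.2 in the other Controls and 37.7 to 45.3 with TGF-β1). The core subunit Ndufv1 was lower by -0.34, and Ndufs1 had 0.07 and was not called.

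Complexes II to IV gave 13 lower of 26 and 0 higher (median -0.18), of which quantile normalization left 5 and correction for gene length 10. Uqcr11 of complex III read 66.9, 117, 108 and 93.9 FPKM in Control and 65.9, 49.98, 57.0 and 61.3 FPKM in Trauma+TGF-β1 (-0.69 ± 0.16, adjusted p = 0.012), with no overlap only by the margin between 66.9 and 65.9. Cox5b, Cox7a2 and Cox4i1 of complex IV were lower by -0.50, -0.35 and -0.22, and cytochrome c, Cycs, by -0.18. Of 18 ATP synthase genes 5 were lower (median -0.12), Atp5e by -0.51 and Atp5o by -0.40. There were 3 lower under quantile normalization and 4 under correction for gene length. The catalytic chain Atp5b had -0.06 and was not called.

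The proteins encoded in mitochondrial DNA went the other way, with 3 of 13 higher and 0 lower (median 0.38). The mt-Nd5 gene of complex I read 1647, 1271, 1116 and 1272 FPKM in Control and 1592, 1938, 1494 and 2027 FPKM in Trauma+TGF-β1 (0.41 ± 0.12, adjusted p = 0.033), and the groups overlapped through Control replicate 1. Without that library 7 were higher, without any 1 of Control replicates 2 to 4 or Trauma+TGF-β1 replicates 2 and 4 there were 0, without Trauma+TGF-β1 replicate 3 there were 8, and under GC correction 0 were higher and 1 lower. The library share of mitochondrial reads moved with this list, and its part in the nuclear genes was not tested.

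NRF1 and ETS factors are known regulators of nuclear respiratory genes. The NRF1 core was in 6.05% of all promoter windows and in 26.3% of the 19 windows of complexes II to IV, and the ETS element in 19.6% and 36.8%. In complex I both were in 9.68% of 31 windows, and in ATP synthase they were in 20.0% and 40.0% of 15. Among the 1084 genes called lower with a window the shares were 5.44% for NRF1 and 16.1% for ETS. A high ETS share was not particular to respiratory genes, with 42.3% of 26 proteasome and 41.7% of 60 cytosolic ribosomal protein windows. Uqcr11 is printed because it holds both, ETS at -66 and the reverse complement of the NRF1 core at -4 (chr10:80406772-80407071, minus strand, elements in capitals).
Uqcr11: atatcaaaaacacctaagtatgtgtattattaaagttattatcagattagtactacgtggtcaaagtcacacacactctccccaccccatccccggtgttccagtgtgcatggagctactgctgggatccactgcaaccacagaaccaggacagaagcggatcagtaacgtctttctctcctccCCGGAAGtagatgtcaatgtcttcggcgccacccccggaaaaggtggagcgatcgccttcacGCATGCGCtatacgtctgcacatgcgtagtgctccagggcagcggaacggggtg

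Ribosomal protein genes were lower in part. Of 81 for the cytosolic ribosome, 21 were lower and 0 higher (25.9%, median -0.13), while in Trauma 2 were higher and 0 lower. Quantile normalization gave 12 lower and 3 higher, with a median of -0.02. Correction for gene length gave 16 lower and 0 higher, with a median of -0.07. Rplp1 of the ribosomal stalk read 783, 999, 1001 and 892 FPKM in Control and 762, 628, 632 and 565 FPKM in Trauma+TGF-β1 (-0.51 ± 0.10, adjusted p = 0.0054). Many of these genes have pseudogene copies that can take reads, so single values are uncertain. The library share of reads on ribosomal protein genes was 1.28% ± 0.0384 in Trauma+TGF-β1 and 1.37% ± 0.0508 in Control (exact permutation p = 0.0571, adjusted 0.114). Mitochondrial ribosomal proteins gave 2 higher and 11 lower of 76 (median -0.14), with 20 lower without Control replicate 1 and 7 without Control replicate 2 or Trauma+TGF-β1 replicate 2. Mrpl14 was lower by -0.64 and Mrpl44 higher by 0.23, the latter a call lost without any 1 of Control replicates 2 to 4 or Trauma+TGF-β1 replicate 3 or 4.

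**Figure D4:**
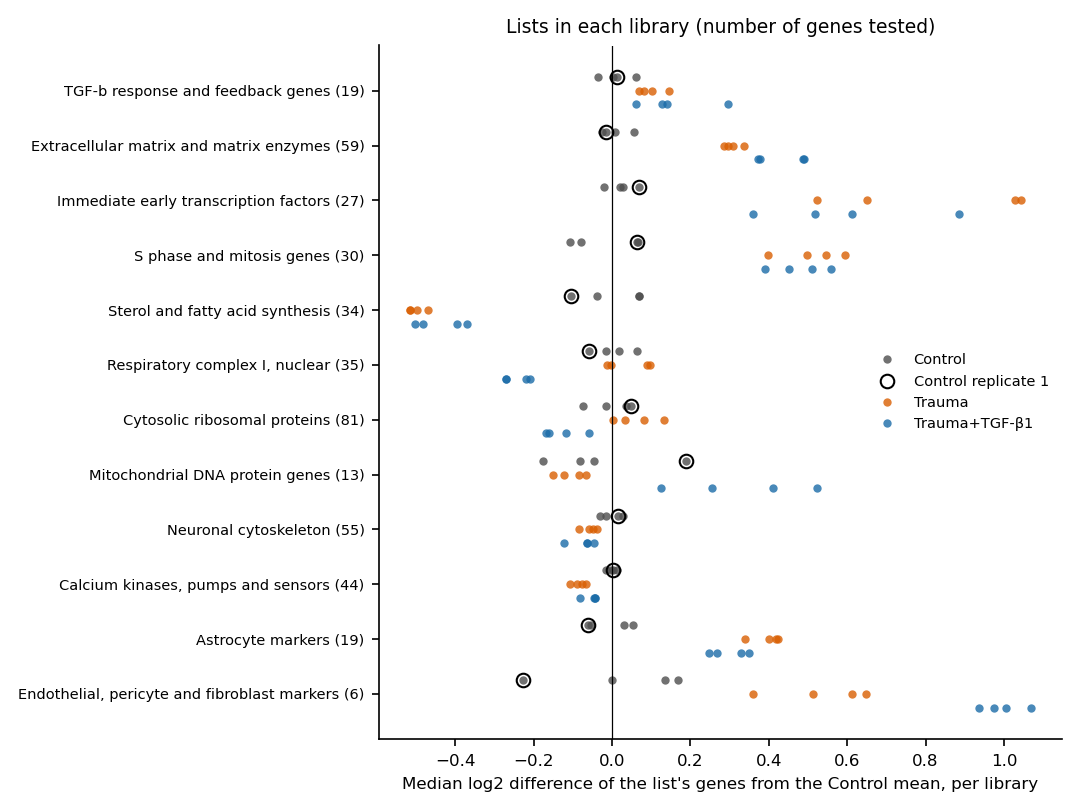
Median log2 difference from the Control mean over the tested genes of 12 lists, 1 point per library (Control grey with replicate 1 circled, Trauma orange, Trauma+TGF-β1 blue). Matrix, S phase and immediate early lists lie right of 0 and the sterol list left of 0 in both scratched groups, complex I lies left of 0 in all 4 Trauma+TGF-β1 libraries and from about 0 to the right in Trauma, and the circled Control lies to the right in the mitochondrial DNA list; the cytoskeleton and calcium lists lie just left of 0, a side that quantile normalization turns.

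Glycolysis, the tricarboxylic acid cycle and protein turnover followed. In glycolysis 3 genes were higher and 7 lower of 23 (median -0.13), with 11 lower without Control replicate 1, and 4 higher and 3 lower under quantile normalization. Tpi1 read 93.4, 100.5, 100.8 and 99.2 FPKM in Control and 83.2, 77.1, 83.6 and 76.0 FPKM in Trauma+TGF-β1 (-0.30 ± 0.04, adjusted p = 0.00099). Pfkl, Pkm and Hk1 were lower by -0.43, -0.21 and -0.21. The members called higher were Pfkfb3, which makes the activator of phosphofructokinase (0.33 ± 0.04), the lactate transporter Slc16a1 (0.40 ± 0.08) and the neuronal glucose transporter Slc2a3 (0.14). Of 20 tricarboxylic acid cycle genes 3 were lower, but 2 were higher and 0 lower under quantile normalization; 5 were lower without Control replicate 1 and 0 or 1 without any other library.

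The proteasome had 5 of 32 lower, Psmb6 and Psmb5 by -0.35 and -0.31. There were 2 higher and 2 lower under quantile normalization, and 0 higher and 2 lower under correction for gene length. The lower count was 10 without Control replicate 1, 2 without Trauma+TGF-β1 replicate 2 and 3 without Control replicate 2 or 4. Cytosolic chaperones had 2 higher and 6 lower of 32 (9 higher and 2 lower under quantile normalization), and 3 lower without Control replicate 3 or Trauma+TGF-β1 replicate 2 or 4. Of the 2 called higher, 1 had a Control mean below 0.5 FPKM. The stress list gave 7 higher and 7 lower of 38. Atf4, the factor of the integrated stress response, and Ddit4, Slc7a11, Chac1, Mthfd2, Atf5 and Phgdh were lower by -0.51, -0.59, -0.55, -0.52, -0.38, -0.35 and -0.26. The endoplasmic reticulum sensor Atf6 and the chaperones or oxidoreductases Pdia4, Pdia3, Hsp90b1, Dnajb9 and Hspa5 were higher by 0.30, 0.25, 0.24, 0.18, 0.18 and 0.11, and so was Gpt2 (0.18). The call of Atf6 was lost without Control replicate 3. The count higher was 3 without Control replicate 3 and 4 without Trauma+TGF-β1 replicate 1 or 4.

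Autophagy, lysosomes and apoptosis were among the processes the study had asked about. Of 47 autophagy genes 3 were higher (6.38%, against 6.85% of all genes) and 4 lower (8.51%, against 9.46%), shares near those over all genes (median 0.01), beside 0 and 0 in Trauma by limma (1 and 4 at an unadjusted p under 0.05); quantile normalization gave 3 and 2, and 7 were higher without Control replicate 1 and 1 without Control replicate 3 or Trauma+TGF-β1 replicate 2. Becn1, of the complex that starts autophagosomes, read 8.63, 9.57, 9.15 and 8.23 FPKM in Control and 7.22, 7.76, 7.65 and 8.14 FPKM in Trauma+TGF-β1 (-0.21 ± 0.06, adjusted p = 0.028). That call was lost without Control replicate 2 or 3 or any 1 of Trauma+TGF-β1 replicates 1 to 3. The cargo receptor Sqstm1 read 112, 136, 134 and 126 against 109, 106, 109 and 109 FPKM (-0.22 ± 0.05, adjusted p = 0.014). Map1lc3a and Gabarapl1, which coat the membrane, were lower by -0.35 and -0.21, and Wipi1, Pik3c3 and Tax1bp1 higher by 0.47, 0.26 and 0.18, of which Wipi1 was not called without any 1 of Control replicates 2 to 4 or Trauma+TGF-β1 replicate 2 or 3.

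Lysosomal genes gave 12 higher and 6 lower of 63 (median 0.06), with 8 and 1 in Trauma. Most members called higher were hydrolases or their partners, among them the cathepsins Ctsd, Ctsb, Ctss, Ctsc, Ctso and Ctsa (0.29, 0.11, 0.66, 0.68, 0.46 and 0.22), and Grn (0.20). Ctsd read 82.7, 85.7, 82.6 and 88.7 FPKM in Control and 113, 100.4, 103 and 97.8 FPKM with TGF-β1 (adjusted p = 0.0018), without overlap. Ctsb and Ctsc each lost their call without any 1 of 5 libraries, Control replicate 3 and Trauma+TGF-β1 replicates 1 and 4 among them, and Ctss without Control replicate 3 or Trauma+TGF-β1 replicate 4. All 6 called lower were subunits of the proton pump, led by Atp6v0b (-0.41 ± 0.07; 80.8 to 106 against 69.2 to 77.9 FPKM). Lamp1, the membrane marker, had 96.2 to 105 against 102 to 112 FPKM and was not called (0.10 ± 0.04, adjusted p = 0.1). The higher count was 5 without Trauma+TGF-β1 replicate 1 or 4, 6 without Control replicate 3 and 7 without Trauma+TGF-β1 replicate 2, and the lower count 2 or 3 without Control replicate 2 or 3 or Trauma+TGF-β1 replicate 2 or 4.

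Of 46 regulators of apoptosis and p53 targets, 8 were higher and 7 lower (median 0.05). In the 44 members with a Control mean of at least 0.5 FPKM, which leave out Fas, 7 were higher and 7 lower (median 0.04). Fas, the death receptor, read 0.281, 0.479, 0.489 and 0.468 FPKM in Control and 1.02, 1.52, 1.05 and 1.33 FPKM in Trauma+TGF-β1 (1.33 ± 0.21, adjusted p = 0.0018; Trauma 1.39). Other members called higher were the survival gene Bcl2 (0.58), the receptor Tnfrsf1a (0.46), the cell cycle inhibitor Cdkn1a (0.37), the killer protein Bcl2l11 (0.35), Birc2, Mdm2 and Mcl1. Among those lower were the killer proteins Bok (24.6, 29.5, 33.9 and 26.4 FPKM in Control, 19.0, 17.6, 18.3 and 19.1 FPKM with TGF-β1), Bad (-0.57) and Bax (-0.31), and the survival genes Bcl2l1 and Bcl2l2 (-0.29 and -0.23). The higher count was 4 or 5 without Control replicate 2, 3 or 4 or Trauma+TGF-β1 replicate 1 or 2. Genes that favour death and genes that favour survival were thus found on both sides.

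At the synapse most genes were not called, and the balance of those called depended on the scaling. Presynaptic release genes gave 6 higher and 13 lower of 47 (median -0.07), but 9 and 6 under quantile normalization (median 0.02), and 7 or 8 lower and 2 or 3 higher without Control replicate 2 or 3 or Trauma+TGF-β1 replicate 2. Rims3, of the active zone, read 19.4, 20.3, 20.5 and 21.6 FPKM in Control, 16.6, 15.5, 15.2 and 14.7 FPKM in Trauma and 14.1, 14.6, 16.4 and 14.4 FPKM in Trauma+TGF-β1 (-0.46 ± 0.06, adjusted p = 0.00044), so both scratched groups lay below Control. Syp, Stx1a, Cplx2 and Cplx1 of the vesicle and its fusion machinery were lower by -0.35, -0.31, -0.26 and -0.25. Sv2c, another vesicle protein, was higher (6.79, 6.10, 5.87 and 5.83 against 8.26, 8.75, 8.67 and 8.88 FPKM, 0.49 ± 0.06, adjusted p = 0.00052), as were Rab3c (0.33) and the glutamate transporter Slc17a6 (0.32), although Slc17a6 was not called without any 1 of Control replicates 2 to 4 or Trauma+TGF-β1 replicates 2 to 4.

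Postsynaptic scaffolds gave 4 higher and 8 lower of 50 (6 and 4 under quantile normalization), with 2 higher without any 1 of Control replicates 2 to 4 or Trauma+TGF-β1 replicates 1, 2 or 4. Dlgap3 and Shank1 were lower by -0.34 and -0.28, and Dlg2 and the adhesion protein Lrrtm2 higher by 0.19 and 0.39. Of 29 glutamate receptor genes 4 were lower (3 higher and 2 lower under quantile normalization), namely Grin2d (-0.59 ± 0.12), the AMPA receptor chaperones Cnih2 (-0.33) and Cacng2 (-0.13), and Grik5 (-0.19). Leaving out Control replicate 2 or 3 or Trauma+TGF-β1 replicate 2 or 4 left 2. The main AMPA and NMDA subunits Gria1, Gria2, Grin1 and Grin2b had 0.03, 0.14, -0.04 and 0.11.

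GABA genes were called on both sides, 5 higher and 6 lower of 22 (6 and 2 under quantile normalization). Slc32a1, which loads GABA into vesicles, read 44.0, 51.9, 49.4 and 48.5 FPKM in Control and 35.9, 38.7, 37.8 and 39.0 FPKM in Trauma+TGF-β1 (-0.35 ± 0.05, adjusted p = 0.00086). The GABA-making enzymes Gad1 and Gad2 were higher by 0.20 and 0.23, and among the receptor subunits Gabra2 and Gabrb1 were higher (0.46 and 0.33) and Gabrd, Gabbr1 and Gabbr2 lower (-0.22, -0.22 and -0.13).

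Genes of excitability and calcium were mostly lower where called. Of 47 potassium channel genes 4 were higher and 9 lower (median -0.04), with 5 lower without Trauma+TGF-β1 replicate 4 and 2 higher without Control replicate 2 or 3 or Trauma+TGF-β1 replicate 1, 2 or 4. Kcnj10, the inward rectifier of astrocytes, read 53.4, 54.8, 52.6 and 56.6 FPKM in Control, 58.0 to 64.5 FPKM in Trauma and 76.9, 85.9, 80.3 and 84.2 FPKM in Trauma+TGF-β1 (0.59 ± 0.04, adjusted p = 1.1e-05). The neuronal channels Kcnc1 and Kcnc4 of fast spiking were lower by -0.28 and -0.29. Of 29 sodium, calcium and HCN channel genes, 1 was higher and 8 lower, but 0 and 1 under GC correction. Their median was 0.03, with 15 genes positive and 14 negative, so the list did not fall as a group. There were 4 higher without Control replicate 1 and 0 without any other library. Hcn2, a pacemaker channel, read 28.9, 30.7, 31.4 and 30.9 FPKM in Control, 26.5 to 30.0 FPKM in Trauma and 22.99, 22.4, 23.3 and 21.5 FPKM in Trauma+TGF-β1 (-0.43 ± 0.05, adjusted p = 0.00015). Scn3b, an auxiliary sodium channel subunit, was higher by 0.16.

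Calcium kinases, pumps and sensors gave 2 higher and 15 lower of 44 (34.1%, median -0.06), beside 0 and 11 in Trauma; quantile normalization gave 4 and 9 with a median of 0.03. Nrgn, neurogranin, which holds calmodulin at synapses, read 381, 506, 479 and 446 FPKM in Control and 301, 270, 324 and 273 FPKM in Trauma+TGF-β1 (-0.63 ± 0.08, adjusted p = 0.00061). Hpca, Camkk1, Camkk2, Slc8a2 and Calm3 were lower by -0.53, -0.37, -0.31, -0.27 and -0.23. The kinases Camk1g and Camk2d were higher by 0.49 and 0.21.

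The neuronal cytoskeleton had 20 of 55 genes lower and 4 higher (36.4%, median -0.09), but 4 lower and 13 higher under quantile normalization, 9 lower under GC correction, 10 higher without Control replicate 1, and 1 or 2 higher without any of 6 other libraries (Control 2 to 4, Trauma+TGF-β1 1, 2 and 4). Tubb3, the neuronal β-tubulin, read 916, 981, 969 and 938 FPKM in Control, 813 to 875 FPKM in Trauma and 770, 717, 745 and 721 FPKM in Trauma+TGF-β1 (-0.37 ± 0.04, adjusted p = 0.00016), and the 3 groups did not overlap. The tubulin-binding stathmins Stmn1 and Stmn3 were lower by -0.39 and -0.37, the heavy neurofilament Nefh by -0.32 and tau, Mapt, by -0.20. Map2 of dendrites, the ankyrin Ank3, the motor Kif5b and the kinase Dclk1 were higher by 0.19, 0.16, 0.16 and 0.14; Map2 and Kif5b were not called without Control replicate 2 or 3 or Trauma+TGF-β1 replicate 1 or 2, nor Map2 without replicate 4 of either group. Axon guidance genes gave 7 higher and 7 lower of 51 (12 and 4 under GC correction), with 3 or 4 lower without Control replicate 2 or 4 or Trauma+TGF-β1 replicate 1 or 4. Ntn4 was higher by 0.46 and Sema6d by 0.38, and Efna3 and Sema6b lower by -0.52 and -0.44.

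Genes of dividing cells were higher, in cultures that had received arabinosylcytosine. Of 30 S phase and mitosis genes, 15 were higher and 1 lower (median 0.50), and in Trauma 15 were higher and 0 lower (median 0.48). Top2a, which untangles chromosomes, read 0.694, 0.606, 0.497 and 0.614 FPKM in Control, 1.37, 1.67, 1.89 and 2.11 FPKM in Trauma and 1.64, 1.89, 1.78 and 1.61 FPKM in Trauma+TGF-β1 (1.38 ± 0.15, adjusted p = 0.00016). Uhrf1, Mki67, Cdk1 and Hmgb2 were higher by 1.49, 1.46, 1.33 and 1.06, and the helicase subunits Mcm2, Mcm3, Mcm4 and Mcm5 by 0.58, 0.84, 0.51 and 0.68. Ccne1, of the entry into S phase, was lower by -0.32 (adjusted p = 0.049), a call lost without any 1 of the 8 libraries. Of the 42 genes listed 12 were below the filter, and 4 of the 30 tested, with 3 of the 15 called higher, had a Control mean below 0.5 FPKM, which tilts the count upward. In the other 26, 12 were higher and 1 lower (median 0.41). The 15 genes called higher were low in level, with Control means from 0.168 FPKM for Cdk1 to 15.9 FPKM for Pcna.

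In the Notch pathway 4 of 23 were higher and 1 lower. Notch3, a receptor of pericytes, read 1.28, 1.57, 1.79 and 1.83 FPKM in Control, 2.06 to 2.28 FPKM in Trauma and 3.94, 4.3, 4.05 and 3.75 FPKM in Trauma+TGF-β1 (1.27 ± 0.10, adjusted p = 2.1e-05). Notch1 and Notch2 were higher by 0.98 and 0.42, and the target Hey1 by 0.56. Rfng, a sugar transferase that tunes Notch, was lower by -0.13 ± 0.04 (adjusted p = 0.038) with overlapping groups, and its direction turned under GC correction; the call was lost without Control replicate 2 or 3 or Trauma+TGF-β1 replicate 1, 2 or 4. Interferon, MHC class I and inflammation genes gave 2 higher, B2m (0.34) and Csf1 (0.55), and 1 lower, Stat2 (-0.34), of 20, shares of 10.0% and 5.0% beside 6.85% and 9.46% of all genes, and 26 of the 46 listed were below the filter. Without Control replicate 3 or any 1 of Trauma+TGF-β1 replicates 1 to 4 only 1 was higher, and Stat2 was not called without Control replicate 1, 3 or 4 or Trauma+TGF-β1 replicate 1 or 2.

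Markers of other cells moved with these groups. Of 19 astrocyte markers 12 were higher and 2 lower (median 0.27), beside 15 and 0 in Trauma (median 0.40), and Gjb6 was below the filter. Gfap, the filament of reactive astrocytes, read 42.7, 48.4, 45.6 and 52.2 FPKM in Control and 91.6, 99.4, 99.2 and 98.1 FPKM in Trauma+TGF-β1 (1.04 ± 0.10, adjusted p = 5.9e-05). Vim and the water channel Aqp4 were higher by 1.15 and 0.96. Glul, glutamine synthetase, went the other way, with 93.5, 115, 103 and 104 FPKM in Control, 129, 139, 142 and 142 FPKM in Trauma and 78.0, 80.3, 75.4 and 77.3 FPKM in Trauma+TGF-β1 (-0.41 ± 0.06, adjusted p = 0.00078; Trauma 0.41). The 3 groups did not overlap in Glul, and the Control level lay between the other groups.

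Of 24 endothelial, pericyte and fibroblast markers 6 were tested and 3 were higher (Acta2, Myl9 and Notch3, median 0.95). Their summed level was 8.09 to 8.96 FPKM in Control, 13.6 to 18.4 FPKM in Trauma and 19.4 to 22.9 FPKM in Trauma+TGF-β1, while Cldn5, Pecam1, Cdh5, Col1a2, Dcn and Lum were among 18 below the filter. Microglia markers had 3 of 12 tested higher (1 without Control replicate 3), with sums of 53.7 to 57.0 FPKM in Control, 71.5 to 83.1 FPKM in Trauma and 64.5 to 76.1 FPKM in Trauma+TGF-β1; Aif1, P2ry12, Tmem119 and 5 others were below the filter and Siglech had 0 reads in every library. Oligodendrocyte markers had 3 of 10 higher, with 57.9 to 63.8 FPKM in Control, 75.3 to 83.3 FPKM in Trauma and 71.9 to 79.4 FPKM in Trauma+TGF-β1. Neural progenitor markers had 1 of 10 higher, Nes by 0.47, with sums of 159 to 190 FPKM in Control and 179 to 203 FPKM with TGF-β1. Neuron markers gave 4 higher and 6 lower of 16, but 7 and 1 under quantile normalization, with 2 higher and 3 lower without Control replicate 2 or 3 or Trauma+TGF-β1 replicate 2 and 2 higher without Control replicate 4 or Trauma+TGF-β1 replicate 4. These sums moved together with the matrix, S phase, lysosomal and synaptic lists, and their part in those results was not tested.

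The genes with the largest decrease included several that were not called in Trauma. Mien1, a membrane anchor protein, read 12.3, 21.0, 23.8 and 21.3 FPKM in Control, 16.5 to 24.1 FPKM in Trauma and 11.7, 8.32, 10.8 and 8.35 FPKM in Trauma+TGF-β1 (-0.97 ± 0.19, adjusted p = 0.0066). The prefoldin subunit Pfdn6, the actin-binding peptide Tmsb10 and the ribosomal Rpl22l1 were lower by -0.89, -0.91 and -0.84. In each of these 4 genes Control replicate 1 was the lowest Control and lay next to the treated libraries. Mafa, a maf factor, and Ciart, a repressor of the clock, were lower by -0.98 and -1.05, with -0.74 and -1.0 in Trauma. Among the largest increases, Lcn2, an iron-binding protein of reactive astrocytes, S100a11, a calcium-binding protein, and Myl9, a myosin light chain, were higher by 1.70, 1.58 and 1.56, with 2.24, 1.40 and 1.63 in Trauma.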

How the data were processed

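RNA of all 12 libraries (polyA RNA, paired-end reads) was sequenced after 24 h. The authors aligned reads to mm10 with HISAT2 2.0.5 and deposited FPKM per gene, 1 table for 55901 genes; 0 columns went unused. FPKM times gene length gave whole reads (tolerance 0.01) for all values, and the deposited FPKM already carried size factors, so they were divided by factors over 14355 genes to give the rescaled FPKM printed here. Depth (reads on genes) limits the precision of low genes, and whether counting used strand is not given in the sources used here, so overlapping and antisense genes are uncertain.

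Genes with a mean of at least 0.5 FPKM were fitted as log2(FPKM + 0.1) in limma 3.58.1 (R 4.3.3, trend, 12 libraries, 3 contrasts, Benjamini-Hochberg, called at 0.05), after tests on simulated data; a constant of 0.1 makes fold changes of low genes understate the ratio. A ± after a log2 fold change is its SE. All adjusted p-values are from limma. Named genes were the 12 largest changes each way (at least 2 FPKM, groups apart), up to 2 called genes each way per list (at least 1 FPKM) and genes the study had measured; other list members named beside them were chosen after their values were seen. The members and lists were chosen with earlier results of these data known. Alternatives were other scalings, filters, constants, models and leaving out libraries. Promoters (250 bases before, 50 after the start) came from RefSeq, GRCm38.p6.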

Additional observations from a re-analysis of the deposited data

Results flagged for a closer look

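In 24 of 435 groups of 4 libraries the highest or lowest library lay far from the others (Dixon test at the 95% level); about 1 group in 20 is picked out in this way by chance. Control replicate 1 accounts for 6 of them. Control replicate 1 stood out with Pfdn6 14.5 FPKM (others 23.5 to 24.7), Rpl22l1 10.8 FPKM (others 14.6 to 14.996), Fas 0.281 FPKM (others 0.468 to 0.489), Kcnip2 16.3 FPKM (others 18.9 to 19.0), Camk1g 15.3 FPKM (others 11.3 to 11.6) and Slc17a6 7.12 FPKM (others 5.35 to 5.52). Control replicate 2 stood out with Ctsb 76.5 FPKM (others 71.0 to 71.9). Control replicate 3 stood out with Hspb1 1.1009 FPKM (others 0.226 to 0.312). Control replicate 4 stood out with Wipi1 1.93 FPKM (others 2.16 to 2.19). Trauma replicate 1 stood out with Mrps26 10.5 FPKM (others 11.9 to 12.0) and Dlgap3 51.4 FPKM (others 48.5 to 49.0). Trauma replicate 2 stood out with Olig1 38.9 FPKM (others 31.9 to 32.7). Trauma replicate 3 stood out with Bcan 41.1 FPKM (others 37.7 to 37.8), Basp1 599 FPKM (others 634 to 637) and Atp5e 40.8 FPKM (others 44.9 to 45.6). Trauma replicate 4 stood out with Timp1 2.66 FPKM (others 1.08 to 1.35). Trauma+TGF-β1 replicate 1 stood out with Pcsk2 10.8 FPKM (others 12.4 to 12.7), Kcnip2 13.1 FPKM (others 14.1 to 14.3), Pcp4 2.49 FPKM (others 1.34 to 1.51) and Gfap 91.6 FPKM (others 98.1 to 99.4). Trauma+TGF-β1 replicate 2 stood out with Sqstm1 106 FPKM (others 109.03 to 109.46). Trauma+TGF-β1 replicate 3 stood out with Mafa 4.92 FPKM (others 3.72 to 3.85). Trauma replicate 1 had 16335960 reads on genes (others 17262211 to 17339554), and Trauma+TGF-β1 replicate 3 had 24508 genes with a read (others 23592 to 23705).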

How the results depend on the processing

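Of 139 named genes called, 92 kept their call under all 23 alternatives and 47 lost it in at least 1. The number of genes called (2449, 1029 higher and 1420 lower) fell to 1514 (616 and 898) in a fit of the 8 libraries, to 1629 (933 lower) with no filter, and to 134 (105 and 29) when a log2 fold change of 1 or more in size was also asked. Fewer genes were called lower under quantile normalization (918) and under GC correction alone (986) or with the replicate block (937). Leaving out 1 library at a time gave 1438 (without Trauma+TGF-β1 replicate 2) to 3422 (without Control replicate 1) genes called, 576 to 1485 higher and 833 to 1937 lower; the cause was not tested. The log2 fold change of Rfng, -0.13 in the reported fit, was 0.0274 under GC correction, with or without the block, and 0.0496 under GC correction without Control replicate 1, an alternative chosen after seeing the data. No scaling moved the median of all genes by more than 0.1.

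The replicate block called 2222 genes (931 higher, 1291 lower), of which 2014 were among the 2449. Deviations of Control and Trauma+TGF-β1 libraries with the same number correlated at 0.0045, 0.0483, 0.0667 and 0.017. No Trauma+TGF-β1 library was most like the Control of its own number. A difference shared by few genes hardly moves such values, and whether libraries of the same number shared a culture was not tested. In replicate order, Fos read 5.69, 5.97, 23.4 and 22.5 FPKM in Trauma and 5.24, 5.78, 18.1 and 13.7 FPKM in Trauma+TGF-β1. Control did not follow this order (1.54, 1.04, 1.29 and 1.61 FPKM). Depth limits genes near 0.5 FPKM.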

Other observations

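Genes in none of the lists and with small adjusted p-values in limma are given here; they were chosen after their values were seen. Igfbp3, which binds insulin-like growth factors, averaged 11.4 FPKM in Control, 16.6 FPKM in Trauma and 27.8 FPKM in Trauma+TGF-β1 (log2 fold change against Control 1.27 ± 0.05, adjusted p = 9.6e-08). Ddah1, which breaks down an inhibitor of nitric oxide synthase, averaged 33.0, 48.2 and 58.2 FPKM in the same order (0.82 ± 0.04), and the glutamine transporter Slc38a3 averaged 12.3, 19.5 and 23.3 FPKM (0.91 ± 0.05). Cd109, a surface protein that binds TGF-β, was higher by 1.40, the tetraspanin Cd9 by 1.34, and Vcam1, an adhesion molecule that leukocytes bind, by 1.32 (adjusted p = 1.4e-05). Msn, Anxa2 and Ctnna1, which link actin to membranes or junctions, were higher by 1.33, 1.09 and 0.61. Abca1, which exports cholesterol from cells, was higher by 0.66 (9.71 FPKM in Control and 15.4 FPKM in Trauma+TGF-β1), beside the lower sterol synthesis genes.

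On the lower side, Acat2, which joins acetyl-CoA units at the start of the sterol pathway, averaged 79.2 FPKM in Control, 49.8 FPKM in Trauma and 50.8 FPKM in Trauma+TGF-β1 (-0.64 ± 0.05, adjusted p = 1.6e-05). Idh1, a cytosolic source of NADPH, was lower by -0.43, Aacs, which activates acetoacetate for lipid synthesis, by -0.40 and Erg28, of the sterol demethylation complex, by -0.46; in Trauma their values were -0.49, -0.32 and -0.55. Ppp2cb, a catalytic subunit of protein phosphatase 2A, had 87.5 FPKM in Control, 85.2 FPKM in Trauma and 71.5 FPKM in Trauma+TGF-β1 (-0.29 ± 0.03). Mgst3, a microsomal glutathione transferase, was lower by -0.30 and the small GTPase Rac3 by -0.47.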
